A study of Mus musculus with 6 samples.

Results

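The promoters of the olfactory receptor genes (Olfr) and of both families of vomeronasal receptor genes (Vmn1r and Vmn2r) were examined for H3K4me3 and for ASH2L in mouse embryonic stem (ES) cells. Members were chosen by name, as the protein-coding genes of GENCODE vM21 on mouse chromosomes 1 to 19 whose symbol was Olfr, Vmn1r or Vmn2r followed by a number. This gave 1413 genes out of 20807 protein-coding genes, with 1087 Olfr, 207 Vmn1r and 119 Vmn2r genes. A promoter was a window around any annotated transcript start, reaching 1000 bp upstream and 100 bp downstream, and a gene was counted as marked when at least 1 bp of a peak fell in that window. The 1413 genes had 3048 distinct start sites.

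The measurements were CUT&RUN, in which an antibody tethers a nuclease to its target so that the DNA beside the target is cut out and sequenced. The study held 6 samples in 3 groups of 2: E14 cells with HA-tagged Ash2L (HA-Ash2L) stained with anti-HA, the same cells stained with anti-H3K4me3, and parental wild-type E14 cells stained with anti-HA. All groups had received doxycycline for 48 h, and the labels give 1000000 cells for each anti-HA sample and 100000 for each H3K4me3 sample. E14 is a mouse ES cell line, and the HA-Ash2L line, which the labels call a knock-in, carries by the study's methods a piggyBac transgene under doxycycline control and was grown from picked colonies, so that it represents selected clones and not the parental population. The parental anti-HA samples were not used here. Duplicates had been merged before peaks were called, so that each peak has a single value, no spread between samples can be given and no test between groups was possible. The H3K4me3 list held 59927 peaks from 27328071 filtered tags and the ASH2L list held 2464 peaks from 25677963 filtered tags.

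Olfr proteins are odorant receptors of the main olfactory epithelium, while Vmn1r and Vmn2r proteins detect pheromones and related cues in the vomeronasal organ. They are G protein-coupled receptors encoded in large gene clusters, and a mature olfactory sensory neuron expresses a single Olfr allele while the others stay silent under heterochromatin. Expression is also restricted in vomeronasal neurons, although neurons with Vmn2r receptors can express more than a single member of that family. The receptors are not part of the known expression programme of ES cells. H3K4me3 is the histone mark typical of active or poised promoters, above all those rich in CpG dinucleotides, and ASH2L is a core subunit of the MLL/SET1 complexes that deposit it.

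In 10 receptors a start lay inside an H3K4me3 peak. The bases directly upstream of such a start are given for 6 of them as examples. Those of Vmn1r135, the receptor farthest from any H3K4me3 peak, are given as the contrast. Sequences are from GRCm38 (mm10), written 5′ to 3′ on the strand of the gene, with CpG in capitals; where an exon came nearer the stretch is shorter. Vmn1r4 (chr6:56923933-56924014, plus strand) had 9 CpG in 82 bases. Olfr1033 (chr2:86020483-86020632, plus strand) had 7 CpG in 150 bases, and Olfr658 (chr7:104647306-104647455, minus strand) had 4. Olfr1342 (chr4:118692757-118692906, minus strand) had 3, Olfr94 (chr17:37198012-37198161, minus strand) had 1 and Olfr464 (chr11:87920968-87921117, minus strand) had 0. Vmn1r135 (chr7:21832201-21832350, plus strand) had 1.
Vmn1r4: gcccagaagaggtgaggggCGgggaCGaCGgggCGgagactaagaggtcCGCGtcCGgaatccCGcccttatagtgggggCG
Olfr1033: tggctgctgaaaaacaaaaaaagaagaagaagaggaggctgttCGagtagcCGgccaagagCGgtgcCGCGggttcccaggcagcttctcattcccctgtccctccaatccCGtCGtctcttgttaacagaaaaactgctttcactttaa
Olfr658: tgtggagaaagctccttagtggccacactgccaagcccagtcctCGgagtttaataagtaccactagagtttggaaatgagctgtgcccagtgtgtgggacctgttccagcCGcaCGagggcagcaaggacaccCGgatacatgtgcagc
Olfr1342: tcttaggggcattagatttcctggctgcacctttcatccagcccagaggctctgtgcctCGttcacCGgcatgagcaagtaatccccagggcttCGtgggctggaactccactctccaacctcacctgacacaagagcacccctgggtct
Olfr94: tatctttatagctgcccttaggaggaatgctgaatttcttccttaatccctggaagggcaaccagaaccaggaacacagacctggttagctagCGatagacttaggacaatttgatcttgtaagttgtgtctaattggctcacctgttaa
Olfr464: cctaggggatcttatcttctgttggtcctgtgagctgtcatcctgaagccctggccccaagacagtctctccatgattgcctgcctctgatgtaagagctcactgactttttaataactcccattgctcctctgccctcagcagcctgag
Vmn1r135: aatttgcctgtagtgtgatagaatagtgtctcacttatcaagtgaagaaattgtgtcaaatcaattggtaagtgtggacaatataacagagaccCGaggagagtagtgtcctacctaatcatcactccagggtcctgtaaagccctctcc
Of the stretches shown, that of Vmn1r4 was the densest in CpG, and it lies beside the start of a neighbouring gene.

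The list was checked against marker genes before any absence was read from it. Of 10 ES cell markers, 3 had an H3K4me3 peak in the promoter window, beside 69.8% of all protein-coding genes: Esrrb with 430 tags, Zfp42 with 570 tags and Klf4 with 1239 tags. The other 7, Pou5f1, Nanog, Sox2, Tdgf1, Dppa5a, Fgf4 and Utf1, had none in the list, and their nearest peak was 3.35 to 25.1 kb away. Of the olfactory sensory neuron markers, 8 lie on chromosomes 1 to 19 and all 8 had a peak (exact lower limit 63.1%, below the share of all genes), from 50 tags for Stoml3 to 1022 tags for Neurod1. A promoter without a peak in this list is therefore not shown to lack the mark, and why these 7 promoters have none was not tested.

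H3K4me3 peaks were nearly absent from receptor promoters. Of the 1413 receptor genes, 18 (1.27%, 95% Wilson interval 0.807 to 2%) were marked, whereas 69.8% of all protein-coding genes and 74.8% of the 19394 other protein-coding genes were. By family, 16 of 1087 Olfr genes (1.47%, 0.908 to 2.38%) and 2 of 207 Vmn1r genes (0.966%, 0.265 to 3.45%) were marked. No Vmn2r gene out of 119 was, for which the exact upper limit is 3.05%. The intervals of the 3 families overlap, and the families cannot be ranked at these counts. Intervals here cover counting error only.

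ASH2L peaks were absent from all receptor windows. The count was 0 of 1413, for which the exact upper limit is 0.261%, beside 8.07% of all protein-coding genes and 8.66% of the others. The ASH2L list is short, and of the 14520 protein-coding genes with H3K4me3 11.3% also had ASH2L. Among the 18 marked receptors the count was 0, for which the exact upper limit of 18.5% includes that share, so that a difference from other marked genes was not detectable at this number.

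**Figure D1:**
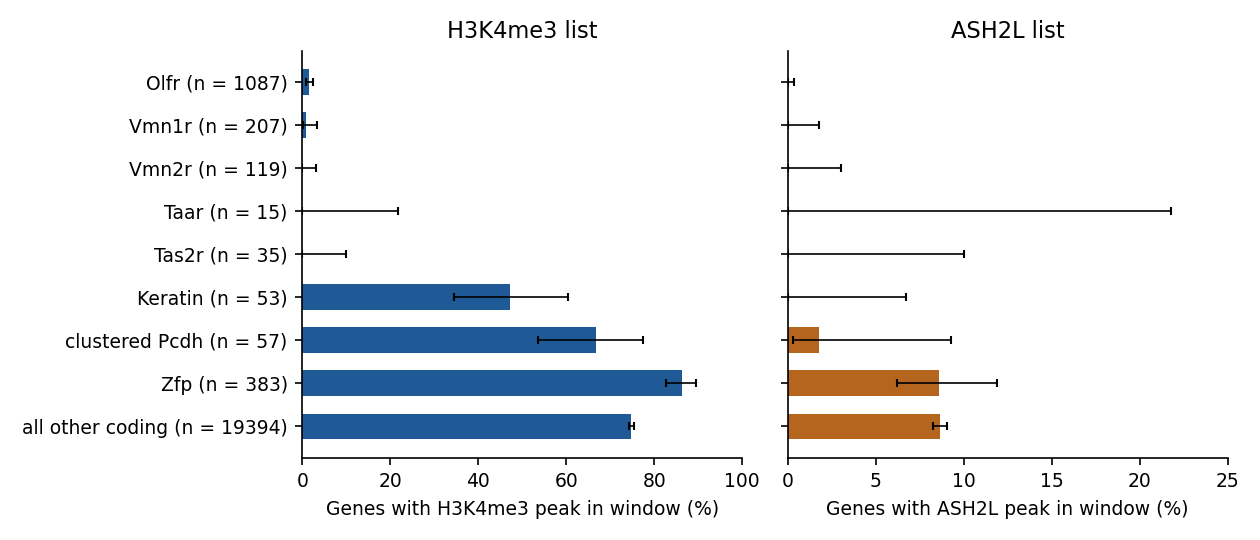
Share of genes (%) with an H3K4me3 peak (left) or an ASH2L peak (right) in the promoter window, for the receptor families, families compared with them and all other protein-coding genes. Bars are shares of the genes in each family and lines are 95% intervals (Wilson, or exact where the count was 0); the axes of the panels differ. Olfr, Vmn1r and Vmn2r lie between 0 and 1.47% for H3K4me3, against 74.8% of other coding genes.

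The contrast was visible along the whole flank of the genes. Coverage was read around 1 start per gene. Among other protein-coding genes, coverage by H3K4me3 peaks rose to 68.7% at the start itself and fell to 6.82% at 4000 bp upstream. Among receptors, 0.425% of genes were covered at that start, and between 10 kb upstream and 10 kb downstream the share stayed between 0.0708 and 1.20%. With any annotated start counted, 10 receptors (0.708%) had a start inside a peak, beside 68.7% of all protein-coding genes. The highest receptor value was found 7500 bp upstream, away from the start. The receptor starts used for this profile therefore formed no maximum, and the peaks that did occur near them were scattered over the flanks.

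**Figure D2:**
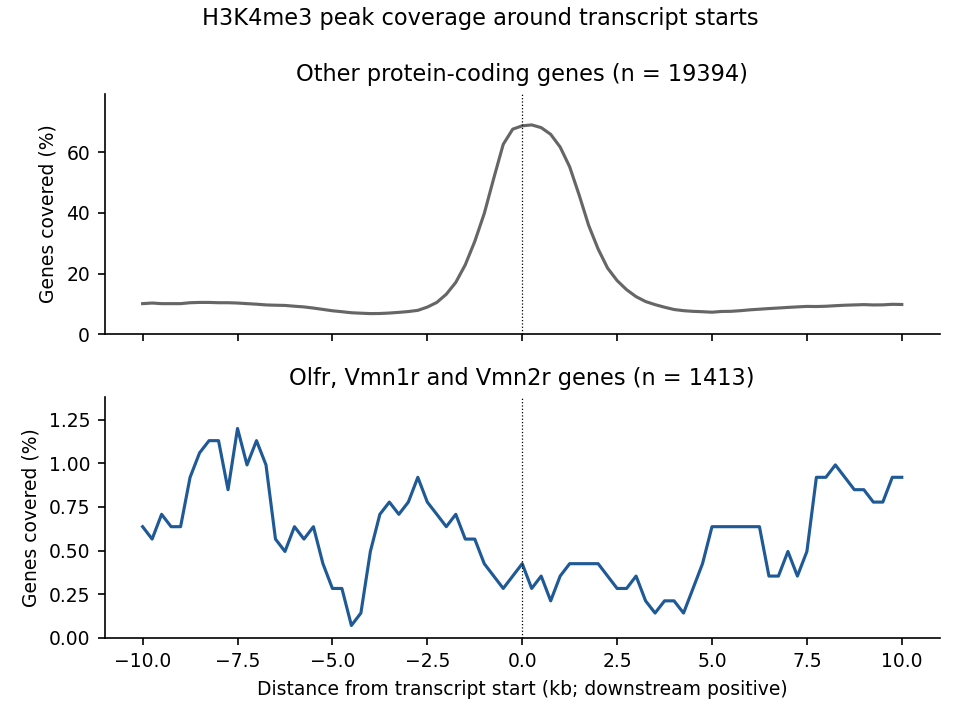
Share of genes (%) whose sequence at a given distance from 1 transcript start per gene (kb, downstream positive) lies inside an H3K4me3 peak, in steps of 250 bp, for other protein-coding genes (top) and receptor genes (bottom). The scales of the panels differ: coverage of other genes is 68.7% at the start, whereas receptors stay at or below 1.20% throughout with no maximum at the start.

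The 18 marked receptors were weakly marked. Their windows met 19 peaks, because Olfr641 met 2 peaks. These peaks had a median of 54 tags, with a range of 24 to 472, and a median length of 1006 bp. The median over the whole list was 113 tags and 1453 bp, and the 16212 peaks at promoters of other genes had a median of 399 tags and 2663 bp. The fold enrichment, which divides the summit by a background modelled from the same library, went the other way, since its median was 8.10 at the receptors, 6.46 over the list and 6.38 at other promoters. Thus 15 of the 19 peaks fell below the median of the list in tags, while 16 were at or above its median in fold enrichment. Of the 19, 17 had fewer tags than the first quartile of other promoter peaks, which was 218 tags.

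The exceptions to this weakness were Vmn1r4 and Olfr94. Vmn1r4 is the first gene of a Vmn1r cluster on chromosome 6, and its peak (chr6:56921940-56925000) had 472 tags over 3061 bp with a fold enrichment of 8.10. The same peak held the start of Nt5c3, a pyrimidine 5′-nucleotidase gene expressed in many tissues, so that signal at the receptor cannot be told apart from signal at its neighbour. Vmn1r4 also had the most CpG-rich window of all receptors when 1 window per gene was taken, with an observed/expected CpG ratio of 0.93. It was the only marked receptor whose peak reached the promoter window of a coding gene outside the receptor families. The other 17 had a peak of their own in this sense.

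Olfr94 on chromosome 17 had 413 tags over 2674 bp (chr17:37196183-37198856) with a fold enrichment of 7.75. The peak covered the start but its summit lay 616 bp downstream, in the coding sequence, and the nearest start of another protein-coding gene, Ubd, which encodes the ubiquitin-like modifier FAT10, was 2291 bp from the peak. Olfr94 was also the receptor nearest to ASH2L. An ASH2L peak of 34 tags and 659 bp (chr17:37196906-37197564, fold enrichment 6.50) lay 447 bp downstream of the start, outside the window, and all of its 659 bp fell inside the H3K4me3 peak. Peaks of both lists were therefore found together over the body of this gene. The ASH2L peak was called with no control library, and anti-HA signal in parental cells was not compared here.

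For 5 marked receptors, all Olfr, the peak lay on the coding sequence and reached back into the window. Besides Olfr94 these were Olfr1344 (chr7:6439667-6441081) with 119 tags, Olfr279 (chr15:98497346-98498651) with 100 tags, Olfr222 (chr11:59570796-59571810) with 72 tags and Olfr1349 (chr7:6514518-6515553) with 47 tags. Their fold enrichments were 8.55, 8.68, 7.81 and 7.60. Their summits lay 371, 707, 420 and 525 bp downstream of the start. The Olfr222 peak ended 3 bp short of the start base. Since the coding region of an olfactory receptor is usually a single exon, these peaks sat on the receptor sequence itself.

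For 6 marked receptors the start was inside the peak and the coding sequence was not, Vmn1r4 among them. Olfr1342 (chr4:118692120-118693257) had 79 tags and a fold enrichment of 8.36. Olfr1033 (chr2:86020309-86021026) had 48 tags and a fold enrichment of 9.50, and 91.5% of its peak was soft-masked, that is, annotated as repeat sequence in the assembly. Olfr464 (chr11:87920892-87921407) had 40 tags and a fold enrichment of 9.12, and Olfr658 (chr7:104646739-104647484) had 38 tags and 7.60. Olfr156 (chr4:43823775-43824375) had the fewest tags of all, 24, with a fold enrichment of 6.08. Apart from Vmn1r4, these peaks were 516 to 1138 bp long, shorter than the median of the list.

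For the other 7 receptors the peak lay wholly upstream, 336 to 869 bp from the nearest start. Olfr823 (chr10:130116014-130117747) had 116 tags and Olfr1431 (chr19:12198717-12200081) had 106 tags, with fold enrichments of 10.37 and 11.31. Olfr1298 (chr2:111649576-111650482) had 63 tags and the highest fold enrichment of the group, 12.93. Olfr523 (chr7:140171374-140172379) had 54 tags, Vmn1r210 (chr13:22828983-22829764) had 36 and Olfr1359 (chr13:21701625-21702330) had 33. Olfr641, a class I receptor, had peaks of 44 tags (chr7:104033934-104034452) and 34 tags (chr7:104034485-104035109), and only 8 bp of the first reached the window. Over 60% of the peak was soft-masked for Olfr823, Olfr1298, Olfr1431, Olfr1033 and the first peak of Olfr641, 5 of the 19 peaks, against a median of 16.0% over the list, 34.8% in cluster peaks away from other coding promoters and 48.7% of the cluster sequence. The part of repeat sequence in these peaks was not tested.

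**Figure D3:**
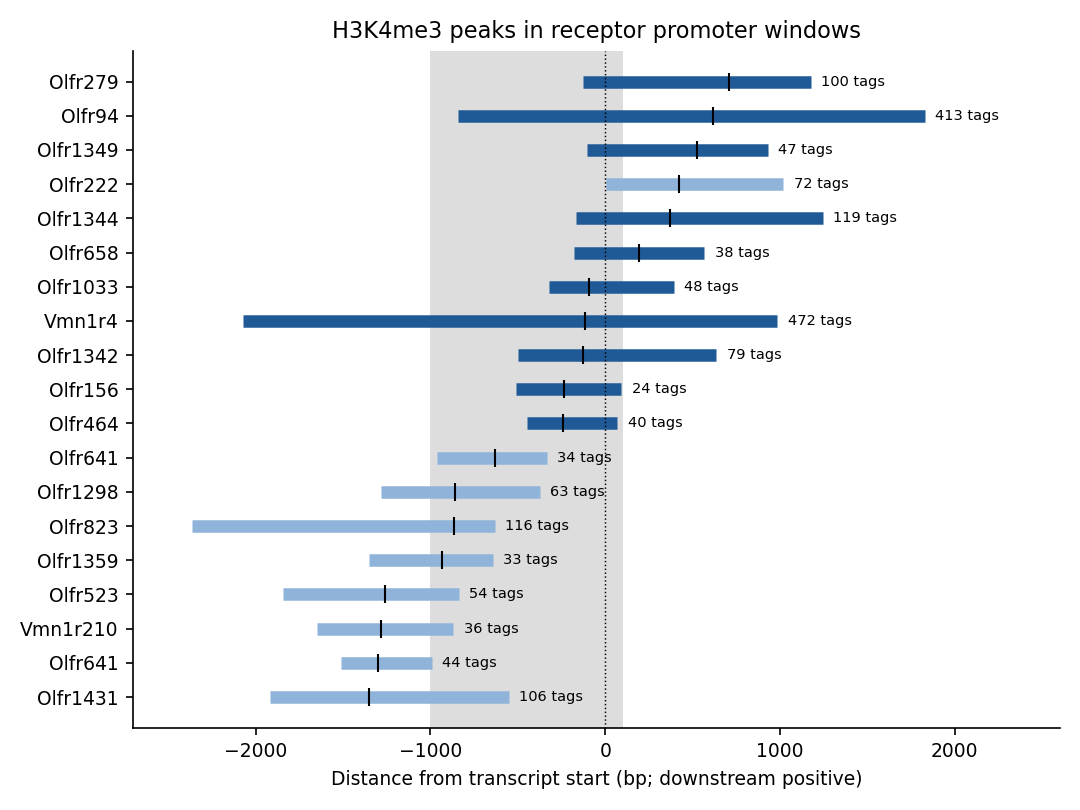
The 19 H3K4me3 peaks that meet the promoter windows of 18 receptor genes, drawn to scale as bars by distance from the transcript start (bp, downstream positive) and ordered by the summit (black tick), with the tags of each peak. Dark bars contain the start base and light bars do not; the grey band is the promoter window. The widest peaks, with 472 and 413 tags, belong to Vmn1r4 and Olfr94.

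The 3 unmarked genes nearest to a peak were again Olfr genes with the peak on the coding sequence. The peak of Olfr15 (chr16:3839078-3840096) began 103 bp downstream of a start and had 95 tags, that of Olfr455 (chr6:42537713-42538911) began 109 bp downstream and had 95 tags, and that of Olfr982 (chr9:40074232-40075578) began 403 bp downstream and had 93 tags. The peaks of Olfr15 and Olfr455 thus began only a few bases beyond the window of 100 bp downstream, whereas the marked genes with the least overlap of their peaks, Olfr222 and Vmn1r210, had 98 and 132 bp inside it. Their fold enrichments of 9.80, 10.64 and 12.93 were as high as those of the marked receptors.

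Peaks on receptor coding sequence were therefore counted over all members, a count chosen after these values had been seen. They were found in 11 of 1413 receptors, beside 62.1% of all protein-coding genes. All 11 were Olfr genes, and 10 of the 11 had a summit on the coding sequence. In addition to the 5 marked genes and the 3 just named, they were Olfr95 with 220 tags, Olfr1358 with 34 tags and Olfr283 with 25 tags. Olfr95 is a neighbour of Olfr94 in the same cluster on chromosome 17. None of 207 Vmn1r genes (exact upper limit 1.77%) and none of 119 Vmn2r genes (3.05%) had one, and with so few peaks the families cannot be told apart in this.

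The 11 genes shared a high GC content of the coding sequence. It ranged from 50.5 to 61.4% with a median of 57.3%, against a median of 43.8% in the 1076 Olfr genes without such a peak. When Olfr genes were ordered by coding GC and split into 5 bins of like size, all 11 fell in the highest bin, 5.05% of its 218 genes (2.84 to 8.81%), and the 4 lower bins had 0. The same bin, with a GC content from 48.3 to 61.4%, held 11 of the 16 Olfr genes marked in the promoter window, 5 of which are already among the genes with a peak on the coding sequence. The coding sequence of Olfr94 had the highest GC content of all receptors, 61.4%, and a CpG observed/expected ratio of 0.79 against a median of 0.16 in Olfr genes. Most genes of the highest bin had no peak on the coding sequence.

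The coding sequence at the summit is shown for 5 of these genes, to set the marked Olfr94 and Olfr279 beside the 3 nearest unmarked genes. Each stretch is 121 bases of GRCm38 centred on the summit, written along the gene with CpG in capitals. Olfr94 (chr17:37197335-37197455, minus strand) had 12 CpG and Olfr279 (chr15:98498121-98498241, plus strand) had 8. Olfr455 (chr6:42538121-42538241, minus strand) had 7, Olfr15 (chr16:3839550-3839670, plus strand) had 3 and Olfr982 (chr9:40074828-40074948, plus strand) had 2.
Olfr94: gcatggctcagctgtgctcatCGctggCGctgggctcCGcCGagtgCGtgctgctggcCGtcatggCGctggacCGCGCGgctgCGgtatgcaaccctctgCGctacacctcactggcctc
Olfr279: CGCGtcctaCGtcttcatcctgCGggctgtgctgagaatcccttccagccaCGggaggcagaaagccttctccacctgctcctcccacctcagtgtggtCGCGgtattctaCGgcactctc
Olfr455: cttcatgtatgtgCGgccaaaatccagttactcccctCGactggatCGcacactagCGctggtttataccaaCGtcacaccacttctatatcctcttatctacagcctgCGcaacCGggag
Olfr15: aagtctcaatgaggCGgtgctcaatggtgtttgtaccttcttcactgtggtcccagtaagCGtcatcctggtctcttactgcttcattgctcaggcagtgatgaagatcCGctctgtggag
Olfr982: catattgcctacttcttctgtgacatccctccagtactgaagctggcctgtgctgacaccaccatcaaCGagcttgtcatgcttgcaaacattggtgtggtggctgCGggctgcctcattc
The number of CpG at the summit thus varied among these genes, from 2 to 12 in stretches of equal length.

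Most receptor promoters were poor in CpG, and within the same range of CpG content other genes had a higher share with H3K4me3. The CpG observed/expected ratio was taken from the window of 1 start per gene, the most upstream of its protein-coding transcripts. A marked gene could be met by its peak at another start. The median ratio was 0.10 for receptors and 0.45 for other protein-coding genes. Of the receptors, 1277 (90.4%) were below 0.2, and 12 of these (0.94%, 0.538 to 1.64%) were marked. Of 4066 other genes below 0.2, 27.1% (25.7 to 28.5%) were marked. Between 0.2 and 0.4, 4 of 132 receptors (3.03%, 1.18 to 7.53%) and 70.2% of 4658 other genes were marked. The intervals do not overlap in either range. Above 0.4 only 4 receptors remained, and 2 of them were marked, Vmn1r4 and Olfr1033 with ratios of 0.93 and 0.41. Of other genes, 94% were marked between 0.4 and 0.6 and 95.8% at 0.6 or more.

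**Figure D4:**
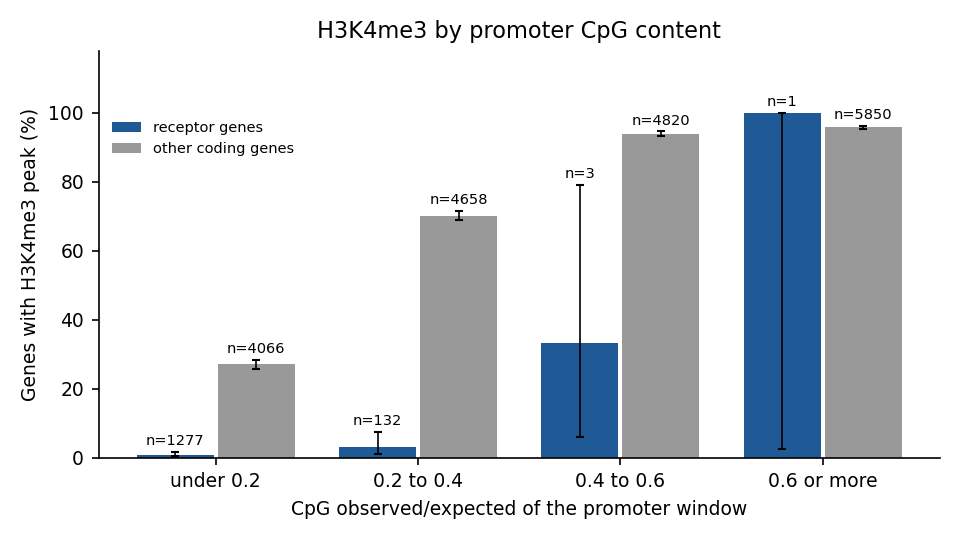
Share of genes (%) with an H3K4me3 peak in any promoter window by CpG observed/expected ratio, for receptor genes (blue) and other protein-coding genes (grey). The ratio is that of the window of 1 start per gene, which need not be the window met by the peak. Lines are 95% intervals (Wilson, or exact where all genes were marked), and n is the number of genes. Below a ratio of 0.2 the shares are 0.94% and 27.1%.

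The marked receptors are described beside the unmarked, with no test. With 1 window per gene, at the most upstream start of its protein-coding transcripts, they had a median CpG ratio of 0.17, against 0.10 in the 1395 unmarked receptors. The median GC content was 45.4% against 36.2%. For some marked genes, Olfr94 and Olfr222 among them, this was not the window met by the peak. Their nearest other coding start was at a median of 45.6 kb, against 141 kb. Of the receptors with another coding start within 5 kb 2 of 7 (28.6%, 8.22 to 64.1%) were marked, of those at 5 to 50 kb 7 of 305 (2.30%, 1.12 to 4.66%), and of those farther away 9 of 1101 (0.817%, 0.431 to 1.55%). The interval of the first group lies above the others, but it rests on 7 genes, and the intervals of the latter groups overlap. Vmn1r4, whose peak also held the start of Nt5c3, is 1 of the 2 marked genes of that first group. Of the 1282 receptors (90.7%) with an annotated 5′ untranslated region or upstream exon 18 (1.4%, 0.89 to 2.21%) were marked, and of the 131 annotated from the coding start alone none (exact upper limit 2.78%), a limit above that share.

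Many receptor genes are duplicates of each other, and reads from identical copies cannot be placed with certainty. In 935 receptors (66.2%) no 100-base stretch of the promoter window occurred elsewhere in the assembly, and 11 of them (1.18%, 0.658 to 2.09%) were marked. Of the other protein-coding genes without repeated stretches 78.0% were marked. More than 50% of the window was repeated in 77 receptors, none of them marked, and in 551 other genes, of which 5.08% were marked. This concerned 22.2% of Vmn1r, 20.2% of Vmn2r and 0.644% of Olfr genes, and its part in the counts of the vomeronasal families was not tested.

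Most receptors were far from any H3K4me3 peak. The median distance from the nearest start to a peak was 59.0 kb, with quartiles of 22.8 and 142 kb, whereas the median over other coding genes was 0. A peak lay within 10 kb of 161 receptors (11.4%) and of 84.5% of other genes. For 498 receptors (35.2%) the nearest peak was over 100 kb away, and for Vmn1r135 it was 1638 kb away. By family the medians were 54.7 kb for Olfr, 97.3 kb for Vmn1r and 74.4 kb for Vmn2r genes. To an ASH2L peak the median distance of all receptors was 750 kb, and 167 kb for other genes.

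The receptors lie in clusters, and the clusters as a whole were poor in peaks. Runs of 5 or more receptors with gaps of at most 1 Mb gave 39 clusters that held 1371 receptors over 59.5 Mb. They held 637 H3K4me3 peaks, or 10.7 per Mb (exact Poisson interval 9.90 to 11.6), against 23.8 per Mb over chromosomes 1 to 19. Outside coding promoter windows the densities were 7.80 and 17.2 per Mb. ASH2L peaks numbered 16, or 0.269 per Mb against 0.996. Of the 637 H3K4me3 peaks, 173 lay at promoters of other coding genes, with a median of 334 tags, and 16 at receptors, with a median of 51 tags.

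Within the clusters, the share of receptors met by a peak was not above that of the sequence around them. If a window of 1101 bp is placed at every base of the clusters, 2.96% of windows meet an H3K4me3 peak, and 1.88% when peaks at other coding promoters are left out. Of the 1371 receptors in clusters 17 (1.24%) were marked, and of all 3048 start sites of the receptors 25 (0.82%) were. This is a description of the list, and no test was made of it. The 412 cluster peaks in no promoter window of a member or of a gene outside the receptor families had medians of 65.5 tags, 1030 bp and a fold enrichment of 7.53, beside 54 tags, 1006 bp and 8.10 at the marked receptors. The GC content of cluster peaks away from other coding promoters had a median of 48.3%, against 39.4% for the cluster sequence, and over the list the median of peaks was 49.6%.

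Clusters differed widely. Their density ranged from 0 to 57.5 peaks per Mb, and 34 of 39 were at or below the density of the chromosomes. Marked receptors were found in 14 clusters, of which 3 held 2 marked genes. The largest by number of receptors, Olfr987 to Olfr1272 on chromosome 2, had 217 Olfr genes, 23 peaks over 4.95 Mb and 1 marked gene, Olfr1033. The class I Olfr cluster on chromosome 7, Olfr543 to Olfr692, had 124 genes, 25 peaks over 2.89 Mb and 2 marked genes, Olfr641 and Olfr658. Small clusters on chromosomes 1 (Olfr1416 to Olfr12, 8 genes) and 11 (Olfr1378 to Olfr1375, 5 genes) had no peak at all.

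The emptiest large cluster was Vmn1r91 to Vmn1r183 on chromosome 7, with 65 Vmn1r genes and 1 peak in 3.95 Mb. It also held 38 other protein-coding genes, and its peak did not lie at the promoter of any of them. In this cluster more than 50% of the window was repeated for 40 of 65 receptors, and 1.26% of the sequence was assembly gap, and the part of either in the missing peaks was not tested. The densest was Olfr30 to Olfr223 on chromosome 11, with 22 Olfr genes, 27 other coding genes and 65 peaks in 1.13 Mb, 23 of them at other coding promoters. Its only marked receptor was Olfr222. Clusters of Vmn1r or Vmn2r genes alone had 5.76 peaks per Mb (4.59 to 7.13), Olfr clusters 10.9 (9.70 to 12.2) and mixed clusters 14.6 (12.8 to 16.5). Windows repeated over more than 50% of their length were 25%, 0.219% and 8.65% of the receptors in these kinds of cluster.

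**Figure D5:**
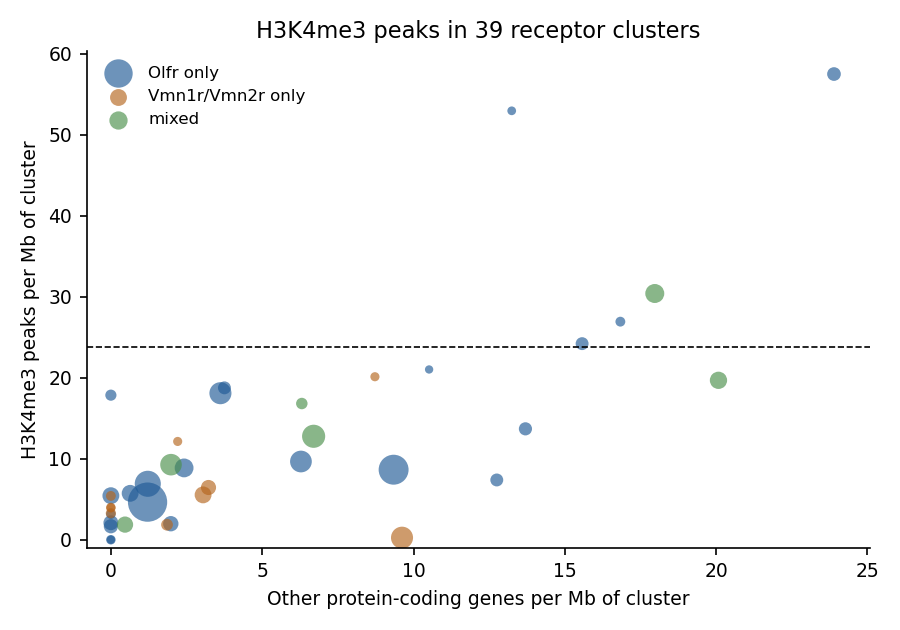
H3K4me3 peaks per Mb against other protein-coding genes per Mb in 39 receptor clusters, by the receptor families they hold; the area of a point grows with the number of receptors, and the dashed line is the density over chromosomes 1 to 19, 23.8 per Mb. Of the 39 clusters, 34 lie on or below the line and 5 above it.

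The 16 ASH2L peaks inside clusters were mostly far from receptors. Of these, 9 overlapped an H3K4me3 peak. The peaks nearest to receptors after Olfr94 were those 5883 bp from Olfr1157, with 26 tags, and 10943 bp from Vmn2r22, with 22 tags. Neither overlapped an H3K4me3 peak.

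Marked genes were sought at the edges of clusters, where other genes are near. Among the first and last 2 receptors of a cluster 5 of 156 (3.21%, 1.38 to 7.28%) were marked, and among those further inside 12 of 1215 (0.988%, 0.566 to 1.72%). The intervals overlap. The marked edge genes included Vmn1r4 and Olfr279, both the outermost of their cluster. Of 42 receptors outside such clusters 1 was marked, Olfr464.

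Letters of 2 kinds of regulatory motif were counted in the 250 bases before and 50 bases after the start, on both strands. CCCNNGGG, the core recognised by EBF factors, was present at 200 receptors (14.2%) and at 16.3% of all protein-coding genes. TAATTA, a homeodomain-type core, was present at 332 receptors (23.5%) and at 5.14% of all genes, and TAATTG or its reverse CAATTA at 426 (30.1%) and 7.82%. EBF and LHX2, a homeodomain factor, bind olfactory receptor enhancers in sensory neurons. The AT-rich letters were frequent where the sequence itself was AT-rich, with a median GC content of 36.4% in receptor windows and 49.4% in all, and the part of composition was not tested. Of the 18 marked receptors 6 had CCCNNGGG, 6 had TAATTA and 5 had TAATTG or CAATTA. By family CCCNNGGG was found at 14.9% of Olfr, 3.38% of Vmn1r and 26.1% of Vmn2r genes.

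The genes that act with the receptors had a share near that of all genes. Of 18 signalling genes 13 (72.2%, 49.1 to 87.5%) had H3K4me3, near the 69.8% of all genes. They included Adcy3, the cyclase of odour transduction, with 471 tags, Gnal, the G protein subunit that activates it, with 466 tags, and Ric8b, a Gnal exchange factor, with 582, the most of the list; the fewest were the 50 tags of Stoml3. ASH2L was found at 2 of the 18 (11.1%, 3.1 to 32.8%), near the 8.07% of all genes. These were Omp, the olfactory marker protein, with 26 tags and Reep1, a receptor trafficking factor, with 39 tags. Cnga4, Gnai2, Rtp1, Rtp2 and Trpc2, the channel of vomeronasal neurons, had no peak in the window, although that of Trpc2 was 0.127 kb away.

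Of 17 regulators of receptor choice 13 (76.5%, 52.7 to 90.4%) had H3K4me3, near the 69.8% of all genes. ASH2L was found at 3 of the 17 (17.6%, 6.19 to 41%), an interval that includes the 8.07% of all genes. These were Cbx5, which encodes HP1α, Ehmt1, an H3K9 methyltransferase, and Kdm1a, a histone demethylase, with 39, 70 and 34 tags. Cbx5 had the most H3K4me3 tags, 1508, and Setdb1, another H3K9 methyltransferase, the fewest, 116. Atf5, Ebf3, Ldb1 and Rest had no H3K4me3 peak in the window, although a peak lay 0.286 kb from a start of Ebf3. In a list where 7 of 10 ES markers have no peak, these are not shown to be unmarked.

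Other chemoreceptor families also had few peaks. Of 60 genes of the Taar, Tas1r, Tas2r and Fpr families 1 was marked (1.67%, 0.295 to 8.86%), Tas1r1, a taste receptor subunit, with 652 tags. All 15 Taar and 35 Tas2r genes were unmarked, and none of the 60 had ASH2L (exact upper limit 5.96%, beside 8.07% of all genes). Only 19 of the 60 (31.7%) have an annotated 5′ end, and among other coding genes 24.8% of those annotated from the coding start were marked, against 76.7% of those with a 5′ end. Among other clustered families, and beside 69.8% of all coding genes, 25 of 53 keratin genes (47.2%, 34.4 to 60.3%) were marked, 38 of 57 clustered protocadherin genes (66.7%, 53.7 to 77.5%) and 331 of 383 Zfp genes (86.4%, 82.6 to 89.5%). Their median CpG ratios were 0.22, 0.35 and 0.44, against 0.10 in receptors. These families are also arranged in clusters, in whole or in part.

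Some receptor genes left out by the rule were counted as well. None of 7 receptor genes on the X chromosome was marked (exact upper limit 41%). Of 502 annotated receptor pseudogenes 11 were marked (2.19%), beside 8.58% of all annotated pseudogenes, and none had ASH2L. Over the whole gene, from start to end, 55 receptors (3.89%) held an H3K4me3 peak, against 80.8% of other coding genes.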

How the data were processed

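CUT&RUN was performed by the authors in 6 samples of E14 cells, and duplicates were merged before peak calling. Bowtie2, SAMtools 1.5, bedtools, MACS 1.4 and HOMER 4.10 are named in the submitters' processing notes, with mm10 as the build. The file headers name MACS 1.4.3, no control library, a p-value cutoff of 1e-05 and 1 tag per position. The deposited tag counts are whole numbers of tags of the merged libraries in each peak, without normalization. The deposited score is the negative log10 of the caller's p-value, multiplied by 10. The fold enrichment deposited beside it divides the summit by a background modelled from the same library. The headers give tag sizes of 142 bp (H3K4me3) and 151 bp (ASH2L), above the fragment length kept according to the methods, and which fragments the lists count is not settled.

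From these lists, overlap (1 bp or more) with promoter windows of GENCODE vM21 transcripts, distances, cluster densities and sequence composition of GRCm38 were computed. CpG and GC content of windows and motif letters were taken at 1 start per gene. Shares carry 95% Wilson intervals, exact where 0 or all. Repeated promoter sequence was the share of 100-base stretches found elsewhere on the assembled chromosomes. No test between groups was possible. All marked receptors and the 3 unmarked receptors nearest to a peak were named, and list genes as counts with those that hold ASH2L or the most or fewest tags. The members, lists and rules were chosen with earlier results of these data known. Overlap, distance and repeat steps were tested on simulated data. The tools were numba 0.67.0, pysam 0.24.0, scipy 1.17.1, matplotlib 3.10.9, pandas 2.3.3 and numpy 2.4.6 under Python 3.11.15.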

Additional observations from a re-analysis of the deposited data

How the results depend on the processing

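The lists merge duplicates, so that the spread between cultures is unknown, and no paired analysis was possible because no value per sample was used. Without a control library, absence of a peak is no measure of absence of the mark. The 18 receptors with H3K4me3 became 49 (beside 73.3% of all coding genes) in windows of 2500 bp on both sides, 10 when the start base alone was counted (68.7%), 6 when 50% of the window had to be covered (66.3%) and 8 when the midpoint of the peak had to lie inside (38.1%). In each of these the share of receptors stayed at or below 3.47%. The count was 15 with peaks at or above the median fold enrichment (beside 36.7% of all coding genes) and 15 with a score of 100 or more (67.3%). With RefSeq transcripts it was 13 of 1448 genes (beside 69%), and 11 of the 13 were among the 18. ASH2L went from 0 to 1 receptor (0.0708%), Olfr94, in windows of 2500 bp on both sides, beside 9.06% of all coding genes. The density of H3K4me3 peaks in clusters, 10.7 per Mb, became 9.07 with gaps up to 500 kb, 12.3 with gaps up to 2 Mb, and 7.15 with peaks at or above the median fold enrichment, where the chromosomes had 12. With those peaks the median distance of 59.0 kb became 70.3 kb.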

Other observations

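The 11 receptor pseudogenes with an H3K4me3 peak were Olfr1267-ps1, Olfr1372-ps1, Olfr1421-ps1, Olfr1498-ps1, Olfr269-ps1, Olfr278-ps1, Olfr335-ps, Olfr540-ps1, Vmn2r-ps15, Vmn2r-ps18 and Vmn2r-ps19. Vmn2r pseudogenes are among them, while no intact Vmn2r gene out of 119 was marked. The exact upper limit of 3.05% for those 119 genes lies above the 2.19% of all receptor pseudogenes. The number of Vmn2r pseudogenes examined is not given here, so that no difference is shown. The 31 receptors that were met only by windows of 2500 bp on both sides included Vmn2r12, the single Vmn2r gene with a peak at that distance, and Vmn1r1 and Vmn1r29. The genes of this paragraph were chosen after their values were seen.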
